A study of Macaca mulatta with 10 samples.

Results

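The sarcomere and Z-disc genes described here encode the filaments, cross-links, anchors and assembly factors of the contractile unit of striated muscle. They are a list of 44 genes taken by name. A symbol was available for 15556 (54.4%) of the 28595 Ensembl macaque genes in the data, and by symbol 39 of the 44 were found. *NEB*, *MYOT*, *TCAP*, *SYNPO2L* and *SMPX* were not matched and were not analysed here.

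RNA-Seq of skeletal muscle and of adipose tissue was made from 5 male rhesus monkeys, with 1 library per animal and tissue. The case, rhesus_950807, is a hyperinsulinemic animal in which the study found a heterozygous nonsense mutation of *PRKD2*, severe insulin resistance and obesity. The controls are rhesus_920401, rhesus_940129, rhesus_940313 and rhesus_950509, and control values are given below in that order. Neither the ages at sampling nor the muscle and fat depot taken are given in the labels. Because the mutation, the insulin state, the obesity and any other trait of rhesus_950807 belong to 1 animal, they cannot be told apart, and an exact permutation test of 1 animal against 4 cannot give a p below 0.2. Mapped reads ranged from 33961486 to 43268985 in the muscle libraries and from 30669915 to 41780234 in the adipose libraries. Levels are RPKM, which the authors made from the reads of a gene, the length of its transcript and the mapped reads of the library. Log2 differences, 95% intervals and p-values are from edgeR's quasi-likelihood test on the read counts, two-sided, with Benjamini-Hochberg adjustment over all genes tested, and the spread of the lone case is taken as that of the controls.

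In the sarcomere, thin filaments of actin and tropomyosin slide along thick filaments of myosin. α-Actinin cross-links the thin filaments at the Z-disc, myomesins bind the thick filaments at the M-band, and titin reaches from one to the other as a spring and a scaffold. Around the Z-disc lie LIM and PDZ-LIM adaptors, calsarcins (the *MYOZ* genes), filamin C and the desmin network that joins neighbouring myofibrils to each other and to the membrane. Fast and slow fibers hold different isoforms of some of these proteins. Adipocytes build no sarcomeres, but tropomyosins, several LIM proteins and small heat shock proteins are also made outside striated muscle, and desmin and smooth muscle proteins are found in vessel walls.

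The muscle libraries were rich in muscle-defining mRNA, with *CKM*, *MB*, *RYR1*, *CACNA1S* and *PYGM* summing to 22484 to 29007 RPKM in the controls and 24492 RPKM in rhesus_950807. In adipose tissue the same 5 genes summed to 95.8, 81.9, 67.3 and 16.6 RPKM in the controls and 3.25 RPKM in rhesus_950807, with 79.4 RPKM of the glycogen phosphorylase gene *PYGM* in rhesus_940129. The 9 adipocyte markers found summed to 3922 to 8616 RPKM in the control adipose libraries and 6099 RPKM in the library of the case, although the gene that carries the symbol *FABP4* was itself called higher in muscle (log2 difference 6.09, edgeR adjusted p 5.2e-06). Of the cardiac markers, *NPPA* and *MYL7* had no read in any muscle library and *MYBPC3* stayed at or under 0.132 RPKM, while the cardiac actin gene *ACTC1*, a close paralog of *ACTA1*, was at 4.52 to 19.4 RPKM in control muscle and 16.8 RPKM in that of the case. The adipose libraries of rhesus_920401 and rhesus_940313 stood apart from the other 3 in muscle mRNA. *CKM*, the muscle creatine kinase, was at 43.8 and 28.6 RPKM there and at 0 to 0.673 RPKM in the other 3, so values without both are given beside the adipose results that these libraries move by over 1.5 times. In bulk tissue, fewer cells of a type and less RNA per cell cannot be told apart.

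All 39 genes were transcribed in control muscle, over a range from 3.04 to 28862 RPKM with a median of 157 RPKM. They took 15.9% to 17.6% of the reads in genes in the control muscle libraries and 18.4% in that of rhesus_950807. Of the 39 genes, 7 were at 1000 RPKM or more in the control mean, 16 between 100 and 1000 RPKM, 11 between 10 and 100 RPKM and 5 under 10 RPKM. The highest by far was *ACTA1*, the skeletal α-actin of the thin filament (ENSMMUG00000022086, chromosome 1 from 227524304 to 227527137 on the plus strand, build not named by any source). It stood at 29482, 31634, 29949.8 and 24384 RPKM in the controls and took 6.98% to 8.62% of their reads in genes. Next came the β-tropomyosin gene *TPM2* at 4314 ± 966 RPKM (SD, n = 4), desmin (*DES*) at 3537 ± 1385 RPKM (SD, n = 4), calsarcin-2 (*MYOZ1*) at 2966 ± 604 RPKM (SD, n = 4), *TPM1* at 1624 ± 543 RPKM (SD, n = 4) and the fast-fiber α-actinin *ACTN3* at 1448 ± 364 RPKM (SD, n = 4). *CRYAB*, which encodes the small heat shock protein αB-crystallin, was the seventh at 1379 ± 493 RPKM (SD, n = 4). The SDs of neighbours in this order overlapped from *TPM2* to *MYOZ1* and from *TPM1* to *CRYAB*, so their order is not settled by 4 animals. Levels of close paralogs, such as *ACTA1* among the actins and the tropomyosins, are uncertain because the study kept uniquely mapped reads only.

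**Figure D1:**
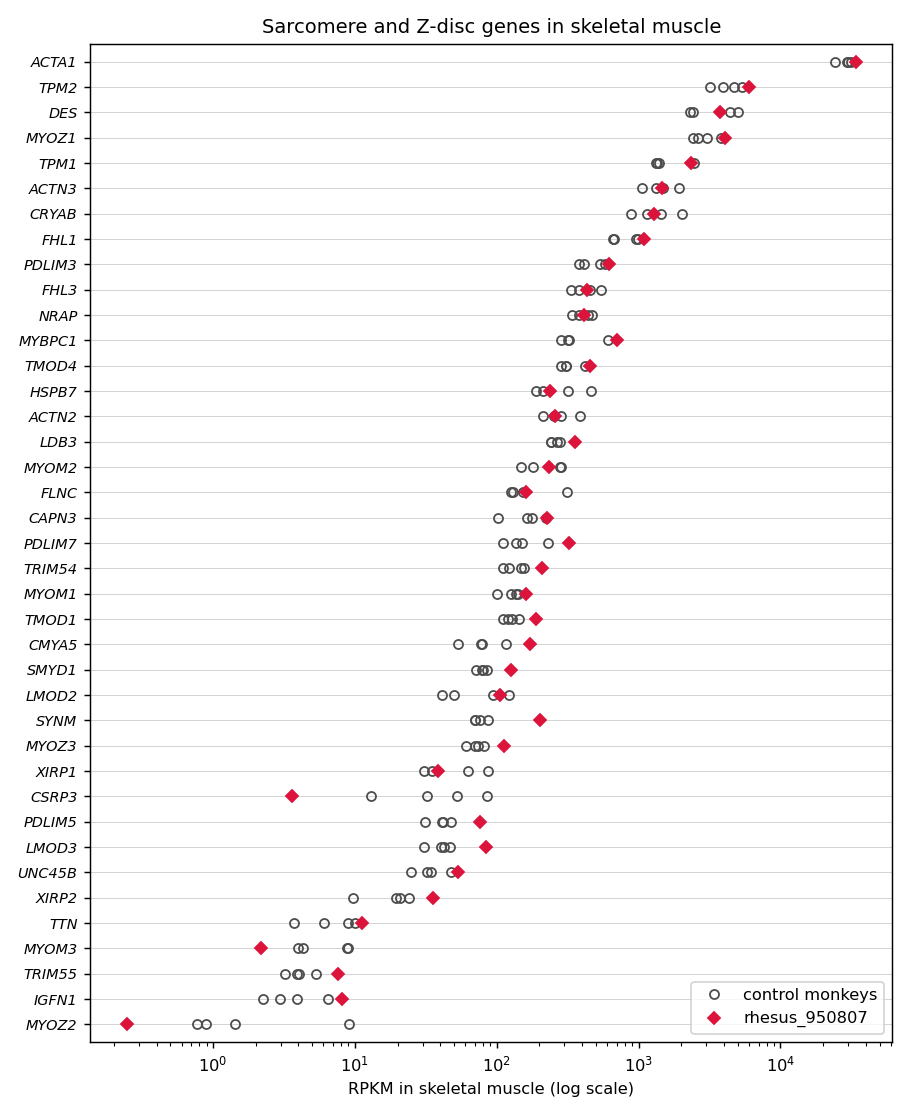
RPKM of the 39 sarcomere and Z-disc genes in skeletal muscle on a log axis, ordered by control mean. Open circles are the 4 control monkeys and red diamonds rhesus_950807. *ACTA1* lies at 24384 to 34057 RPKM, and *CSRP3*, *MYOM3* and *MYOZ2* are the 3 genes whose diamond lies left of all circles.

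At the low end, *TTN* had 7.18 ± 2.85 RPKM (SD, n = 4) over a longest transcript of 61693 bases, from 9996 to 23938 reads. An unnamed gene of the same strand (ENSMMUG00000031355, chromosome 12 from 42202982 to 42205344) lies inside *TTN* and was itself at 15.6 RPKM, so reads toward the 3′ end of titin may be split between them. *MYOM3*, a myomesin found mainly in fibers of intermediate speed, was at 6.51 ± 2.76 RPKM (SD, n = 4), the ubiquitin ligase gene *TRIM55* at 4.11 ± 0.877 RPKM (SD, n = 4), *IGFN1*, whose product lies at the Z-disc, at 3.90 ± 1.86 RPKM (SD, n = 4), and *MYOZ2*, the calsarcin of slow and cardiac muscle, at 3.04 ± 4.03 RPKM (SD, n = 4). Of 2 pairs of paralogs, the fast-fiber gene was the more abundant per length. *ACTN3* was at 1448 RPKM against 284 ± 75.9 RPKM (SD, n = 4) for *ACTN2*, the α-actinin of all fibers, and *MYOZ1* at 2966 RPKM against 3.04 RPKM for *MYOZ2*.

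The genes differed in how much they varied among the 4 controls. Their coefficient of variation had a median of 26.7%, against 23.0% over the 8306 genes tested in muscle. The steadiest were *SMYD1*, a methyltransferase that assists myosin assembly, at 7.23%, *LDB3*, the Z-disc adaptor also called ZASP, at 7.41%, *SYNM* at 10.2% and *ACTA1* at 10.8%. Above 50% were *MYOZ2* at 132% and *CSRP3* at 67.7%. On the log2 scale after TMM scaling, rhesus_920401 was the highest control for 15 of the 39 genes and the lowest for 3, while rhesus_940313 was the highest for 13 and the lowest for 16. The median deviation from the control mean over the 39 genes was 0.16, −0.04, −0.03 and −0.10 in the controls and 0.32 in rhesus_950807. Above the control mean lay 28, 15, 18 and 13 of the 39 genes in the controls and 26 in rhesus_950807.

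In muscle of rhesus_950807, *CSRP3*, *MYOM3* and *MYOZ2* lay below every control, and *SYNM*, *LMOD3*, *PDLIM7*, *PDLIM5* and *CMYA5* were among the 24 genes above every control by RPKM. None of the 39 genes passed the test, as none of the 8306 genes tested did (0%), although 754 genes had an unadjusted p under 0.05 in edgeR. The 24 genes above all controls are 61.5% of the 39, where 34.9% of all genes tested lay above all controls. After TMM scaling 18 (46.2%) did, where 24.3% of all genes did. The 3 below all controls are 7.69%, where 15.2% of all genes were below by RPKM and 23.8% after TMM scaling. The log2 difference was positive for 26 of the 39 (66.7%, against 47.6% of all genes), with a median of 0.29 against −0.03 over all genes tested. Such a count is not particular to the case, since control rhesus_920401 lay above the control mean for 28 of the 39 genes. At an unadjusted p under 0.05 in edgeR, 4 of the 39 genes were higher (10.3%, against 3.79% of all genes) and 3 lower (7.69%, against 5.29% of all genes). With DESeq2, 88 genes were called and 2 of these were in the list, *SYNM* (adjusted p 0.000803) and *MYOM3* (adjusted p 0.0428). Scaling to the mapped totals raised the median of the 39 genes to 0.46 and that of all genes to 0.14.

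**Figure D2:**
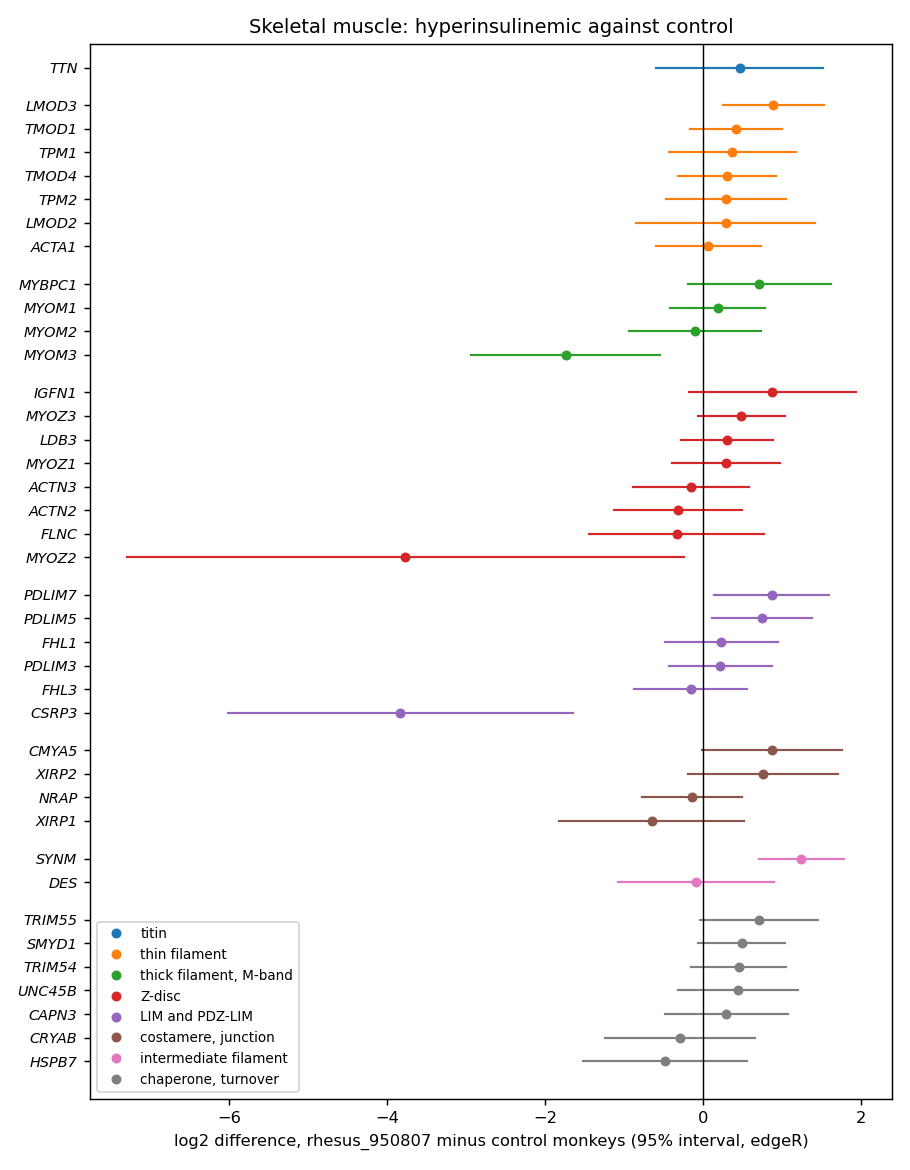
Log2 difference between muscle of rhesus_950807 and of the 4 controls for the 39 genes, grouped by role. Points are edgeR estimates and lines their 95% intervals, and the line at 0 marks no difference. *SYNM* (1.25) is farthest right, and *CSRP3* (−3.84) and *MYOZ2* (−3.77) are farthest left with wide intervals.

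Among the thin filament genes, all 7 had a positive log2 difference with TMM scaling, as did 47.6% of all genes. Above all controls lay 5 by RPKM and 4 after TMM scaling, where 34.9% and 24.3% of all genes did. *LMOD3*, a leiomodin that nucleates actin filaments, was at 47.0, 30.5, 40.7 and 42.7 RPKM in the controls and 84.4 RPKM in rhesus_950807. Every control lay well below the case, with a log2 difference of 0.89 (95% interval 0.25 to 1.53, edgeR adjusted p 0.482). *TPM2* was at 3962, 3162, 5396 and 4736 RPKM in the controls and 5960.3 RPKM in rhesus_950807, a log2 difference of 0.29 (95% interval −0.47 to 1.06) that was 0.16 without control rhesus_940129. *TPM1* was at 1397, 1338, 2438 and 1324 RPKM and 2354 RPKM, so that control rhesus_940313 was above the case and the other 3 controls below it. *ACTA1* was at 34057 RPKM in rhesus_950807, 118% of the control mean, and its log2 difference of 0.07 (95% interval −0.60 to 0.74) was −0.01 in a fit of all 10 libraries and 0.02 to 0.11 when 1 control was left out. The filament-end capping genes *TMOD1* and *TMOD4* had log2 differences of 0.41 and 0.30, and *LMOD2*, the second leiomodin, of 0.29 within a control range of 41.1 to 122 RPKM (0.05 without control rhesus_940313, 0.15 without rhesus_950509 and 0.58 without rhesus_940129). Both tropomodulin genes overlap a gene of the opposite strand (*TSTD2* and *SCNM1*), which strand-specific libraries keep apart where the counting used strand, and whether it did is not given in the sources used here.

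Titin and the thick filament genes differed in direction. *TTN* was at 10.05, 6.02, 3.74 and 8.91 RPKM in the controls and 11.3 RPKM in rhesus_950807, a log2 difference of 0.46 (95% interval −0.59 to 1.52) that was 0.22 without control rhesus_940313, with the case above all controls by RPKM but not after TMM scaling. *MYOM3* (ENSMMUG00000023052, chromosome 1 from 26695150 to 26736740 on the minus strand) was at 8.80, 8.98, 3.97 and 4.28 RPKM in the controls and 2.19 RPKM in the case, which rested on 363 reads (95% Poisson interval 327 to 402, exact, counting error only). The controls fell into a higher and a lower pair, and the case lay below both, with a log2 difference of −1.74 (95% interval −2.94 to −0.54, edgeR adjusted p 0.482). *MYBPC1*, the slow-type myosin-binding protein C that fast fibers also make, was at 608, 316, 286 and 323 RPKM in the controls and 709 RPKM in rhesus_950807. Control rhesus_920401 was close to the case and the other 3 controls were far lower, and the log2 difference was 0.71 (95% interval −0.19 to 1.62, edgeR adjusted p 0.635). *MYOM1*, the myomesin of all fibers, was at 137, 141, 125 and 99.96 RPKM in the controls and 161 RPKM in the case, a log2 difference of 0.19 (0.12 without control rhesus_950509). *MYOM2*, the M-protein of fast fibers, was at 282, 149, 277 and 181 RPKM and 233 RPKM, inside the control range, with a log2 difference of −0.10 that was 0.07 with scaling to the mapped totals and 0.02 without control rhesus_920401.

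Among the 8 Z-disc genes the calsarcins differed in direction. *MYOZ2* (ENSMMUG00000008703, chromosome 5 from 111722759 to 111773698 on the plus strand) was at 1.43, 9.07, 0.772 and 0.896 RPKM in the controls and 0.246 RPKM in rhesus_950807, where it rested on 21 reads (95% Poisson interval 13.0 to 32.1, exact). Control rhesus_940129 was far above the other 4 animals, and the case was the lowest of the 5. The log2 difference was −3.77 (95% interval −7.30 to −0.25, edgeR adjusted p 0.525), and without control rhesus_940129 it was −2.25. *MYOZ1* was at 3045, 2408, 3782 and 2631 RPKM in the controls and 4086 RPKM in the case, and *MYOZ3*, its fast-fiber paralog, at 60.7, 73.2, 80.7 and 70.0 RPKM and 112 RPKM. Both lay above all controls in rhesus_950807, with log2 differences of 0.29 and 0.49 (edgeR adjusted p 0.817 and 0.598). *LDB3* was at 242, 242, 281 and 264 RPKM in the controls and 359 RPKM in the case, a log2 difference of 0.31 (95% interval −0.28 to 0.89). *ACTN2* was at 389, 283, 212 and 252 RPKM and 258 RPKM, inside the control range, with a log2 difference of −0.31 (−0.14 without control rhesus_920401). *ACTN3* was at 1481, 1319, 1929 and 1065 RPKM and 1463 RPKM, also inside the range, with a log2 difference of −0.15 that was 0.01 with scaling to the mapped totals, −0.03 without control rhesus_940313 and −0.25 without rhesus_950509. Filamin C (*FLNC*), the actin cross-linker of the Z-disc, was at 314 RPKM in control rhesus_920401, at 127 to 153 RPKM in the other 3 controls and at 162 RPKM in the case. *IGFN1* had a log2 difference of 0.88 (95% interval −0.18 to 1.94).

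The LIM and PDZ-LIM genes held both the lowest and some of the highest values of rhesus_950807. *CSRP3*, the muscle LIM protein of the Z-disc (ENSMMUG00000019119, chromosome 14 from 52671505 to 52691881 on the plus strand), was at 85.4, 52.3, 13.0 and 32.1 RPKM in the controls and 3.62 RPKM in the case, which rested on 124 reads (95% Poisson interval 103 to 148, exact) against 570 to 3332 reads in the controls. The controls themselves spanned a wide range, and the case was the lowest of the 5 animals. The log2 difference was −3.84 (95% interval −6.02 to −1.65, edgeR adjusted p 0.425). Leaving out 1 control at a time gave −4.17 to −3.36, and the difference did not pass the test without rhesus_920401, rhesus_940129 or rhesus_950509. Without control rhesus_940313, the lowest control, it was −4.17 and passed the test (edgeR adjusted p 0.0323, with 14 genes called in all).

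*PDLIM7* (enigma), an adaptor of the actin cytoskeleton, was at 151, 137, 229.9 and 111 RPKM in the controls and 322 RPKM in rhesus_950807, a log2 difference of 0.87 (95% interval 0.14 to 1.60, edgeR adjusted p 0.497). *PDLIM5* (ENH), which tethers protein kinases at the Z-disc, was at 47.8, 40.8, 31.2 and 41.5 RPKM and 76.7 RPKM, a log2 difference of 0.75 (95% interval 0.11 to 1.39, edgeR adjusted p 0.498). In both genes the 4 controls lay below the case without overlap. *PDLIM3* (ALP), *FHL1* and *FHL3* had log2 differences of 0.22, 0.23 and −0.16, each smaller than its standard error. That of *FHL1* was 0.11 without control rhesus_940313, and that of *FHL3* was 0.02 with scaling to the mapped totals, −0.04 without control rhesus_920401 and −0.27 without rhesus_940129.

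Of the intermediate filament genes, *SYNM* had the smallest p of the 39. It encodes synemin, which joins desmin filaments to the costamere (ENSMMUG00000005220, chromosome 7 from 79135769 to 79166520 on the plus strand). *SYNM* was at 70.7, 86.6, 76.7 and 69.8 RPKM in the controls and 203 RPKM in rhesus_950807, from 18864 to 24669 reads in the controls and 51200 in the case. The 4 controls were close together and the case was far above them, with a log2 difference of 1.25 (95% interval 0.71 to 1.78, unadjusted p 0.000474 and adjusted p 0.342, edgeR). *DES*, the partner of synemin, was at 4398, 2319, 5031 and 2398 RPKM in the controls and 3735 RPKM in the case. Control muscle fell into a higher pair, rhesus_920401 and rhesus_940313, and a lower pair, with the case between them, and the log2 difference of −0.08 was 0.08 with scaling to the mapped totals, 0.02 without control rhesus_920401 and 0.09 without rhesus_940313.

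At the costamere and myotendinous junction, *CMYA5* (myospryn), a desmin-binding anchor of protein kinase A, was at 77.5, 78.2, 53.0 and 116 RPKM in the controls and 170.1 RPKM in rhesus_950807. The case was above all controls with a log2 difference of 0.88 (95% interval −0.01 to 1.76, edgeR adjusted p 0.558). The Xin repeat genes, whose products bind actin at the junction, lay on different sides of 0. *XIRP2* was at 19.6, 21.0, 9.68 and 23.9 RPKM and 35.6 RPKM, above all controls, and *XIRP1* at 86.9, 63.0, 35.0 and 30.7 RPKM and 38.5 RPKM, inside their range, with log2 differences of 0.76 and −0.65, the latter −0.34 without control rhesus_920401. *NRAP*, a scaffold of growing myofibrils, differed by −0.14 (95% interval −0.77 to 0.49), and by 0.03 with scaling to the mapped totals.

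Among the 7 genes of assembly and turnover, 5 lay above all controls by RPKM and 3 after TMM scaling, where 34.9% and 24.3% of all genes did. The muscle RING-finger genes, whose ubiquitin ligases bind microtubules, gave 149, 110, 156 and 121 RPKM of *TRIM54* in the controls and 207 RPKM in the case, and 3.21, 4.01, 5.31 and 3.90 RPKM and 7.55 RPKM of *TRIM55*. Their log2 differences were 0.46 (95% interval −0.15 to 1.06) and 0.71 (95% interval −0.03 to 1.45). *SMYD1* had a log2 difference of 0.49, the myosin chaperone gene *UNC45B* of 0.44 and *CAPN3*, the calpain bound to titin, of 0.30, which were 0.27 for *UNC45B* without control rhesus_940313 and 0.14 for *CAPN3* without rhesus_950509. The small heat shock genes were on the other side of 0, with *CRYAB* at 2033, 1445, 884 and 1152 RPKM in the controls and 1274 RPKM in the case, and *HSPB7* at 461, 315, 189 and 211 RPKM and 237 RPKM. In both, control rhesus_920401 was the highest and the case lay inside the control range, with log2 differences of −0.29 and −0.48. Without control rhesus_920401 these were −0.06 and −0.20, and without control rhesus_940313 that of *CRYAB* was −0.49.

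**Figure D3:**
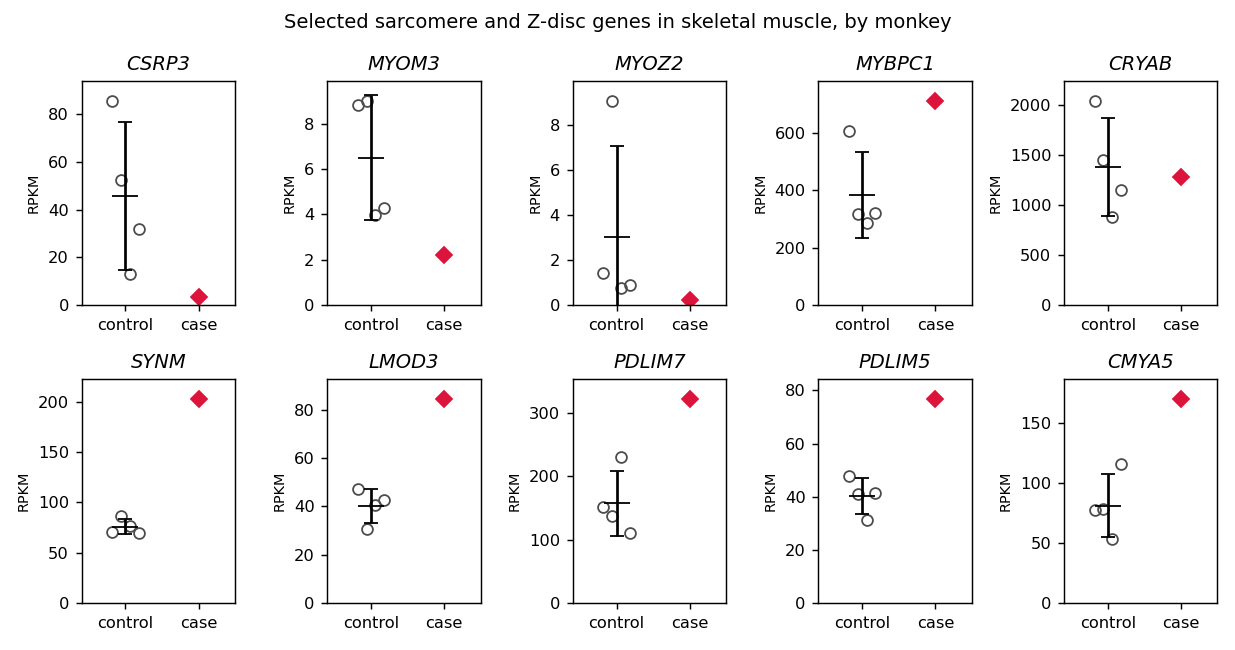
RPKM in skeletal muscle of 10 genes, each on its own linear axis from 0. Open circles are the 4 control monkeys, bars the control mean with SD (the lower bar of *MYOZ2* ends at the axis), and the red diamond is the case, rhesus_950807. *CSRP3*, *MYOM3* and *MYOZ2* lie below all circles, *CRYAB* among them and the other 6 genes above them.

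Markers of slow fibers were also low in muscle of rhesus_950807. All 7 slow-fiber markers tested (*MYH7*, *MYL2*, *MYL3*, *TNNC1*, *TNNT1*, *TPM3* and *ATP2A2*) were below all controls in rhesus_950807 by RPKM and after TMM scaling. Of all genes tested, 15.2% and 23.8% were. The 7 markers had a median log2 difference of −3.98 and a sum of 119 RPKM against 503 to 4661 RPKM in the controls. *TPM3* and *ATP2A2* were also present in control adipose tissue, at means of 48.9 and 15.1 RPKM against 5.55 and 52.2 RPKM in control muscle. *MYL2*, the slow myosin light chain, was at 208, 1145, 147 and 172 RPKM in the controls and 29.0 RPKM in the case. Control rhesus_940129 had the most slow-fiber mRNA and also the most *MYOZ2*. *MYOM3* was about as high in rhesus_920401 as in rhesus_940129, and *CSRP3* was highest in rhesus_920401. The 6 fast-fiber markers tested had a median log2 difference of 0.14 and a sum of 47886 RPKM against 32821 to 51758 RPKM. Of the 10 smooth muscle and pericyte markers, 6 were below all controls by RPKM and 6 after TMM scaling, where 15.2% and 23.8% of all genes were. The 10 markers had a median of −1.04 and a sum of 75.7 RPKM against 111 to 161 RPKM, while 4 endothelial and 5 fibroblast markers had medians of −0.21 and −0.14. The part of these in the results was not tested.

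Of 40 further sarcomere genes, namely myosins, troponins, ankyrin repeat and Kelch proteins and chaperones, 31 were found and tested, and none was called. At an unadjusted p under 0.05 in edgeR, 1 was higher and 7 were lower, where 3.79% and 5.29% of all genes were, and the median log2 difference was −0.02. The lower genes were *PDLIM1* and the slow-fiber markers *MYH7*, *MYL2*, *MYL3*, *TNNC1*, *TNNT1* and *TPM3*. These markers are the same genes as those counted above and not a separate result. The 1 higher gene was *ANKRD1*, a stress-responsive ankyrin repeat protein that binds titin at the I-band. It was at 34.2, 62.4, 57.6 and 27.1 RPKM in the controls and 290.0 RPKM in rhesus_950807, a log2 difference of 2.52 (95% interval 1.73 to 3.31, edgeR adjusted p 0.126). Over 12 alternatives its adjusted p ranged from 5.38e-06 to 0.499. Of the lower genes, *TPM3*, *MYL2* and *TNNT1* had the smallest p, with log2 differences of −1.38, −4.003 and −4.20 (edgeR adjusted p 0.46, 0.482 and 0.482). With 1 control left out these were −1.47 to −1.29, −4.31 to −2.78 and −4.53 to −2.96. All 3 genes are on the list of slow-fiber markers above. *TPM3*, however, was called higher in adipose tissue than in muscle of the controls (log2 difference, muscle against adipose tissue, −1.70, edgeR adjusted p 2.16e-05).

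In adipose tissue the list was low relative to muscle, with a few exceptions, although 21 of the 39 genes had a control mean of at least 1 RPKM. In the controls, 38 of the 39 genes were called higher in muscle than in adipose tissue, where 21.6% of the 12253 genes tested were called higher in muscle, 29.3% higher in adipose tissue and 50.9% in all. This direction was largely set in advance, as the list was chosen as genes of striated muscle. A mean of 1 RPKM in either tissue let a gene into the test, and 18 of the 39, under 1 RPKM in adipose tissue, entered through muscle only. The median log2 difference was 9.05, against −0.30 over all genes tested. Its size depended on the processing: it was 7.59, against −1.73 over all genes, with scaling to the mapped totals. With limma it was 6.85 against −1.66 on log2(RPKM + 0.1) and 5.55 against −1.10 on log2(RPKM + 1). With scaling to the mapped totals 36 genes were called, and the share of all called genes that were higher in muscle was 9.72%, against 42.3% with TMM scaling. The 39 genes took 0.956%, 0.264%, 0.279% and 0.432% of the reads in genes in the control adipose libraries and 0.710% in the case. At least 1 RPKM was reached by 25, 18, 20 and 18 genes in the controls and by 17 in the case, and no read was counted for 1, 11, 2 and 11 genes in the controls and for 10 in the case. Among the 5 adipose libraries, that of rhesus_920401 held the highest level for 22 genes, that of rhesus_950807 for 8, and the other 3 for 1 to 4 each.

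*ACTA1* showed the difference between adipose libraries most clearly. It was at 101, 1.18, 80.9 and 0.444 RPKM in the controls and 1.72 RPKM in rhesus_950807, that is 0.343%, 0.00374%, 0.270% and 0.00182% of the muscle level of the same animal and 0.00505% in the case. Libraries rhesus_920401 and rhesus_940313 were far above the other 3. *MYOZ1* gave the same picture with 13.0, 0, 7.10 and 0 RPKM in the controls and 0.0155 RPKM in the case. The muscle-defining genes named above stood at 0.312% to 0.388% of muscle in rhesus_920401 and 0.121% to 0.357% in rhesus_940313, against 0% to 1.95% in rhesus_940129, 0% to 0.384% in rhesus_950509 and 0% to 0.131% in the case. The part of muscle RNA in these adipose values was not tested. Without rhesus_920401 and rhesus_940313, all 39 genes were called higher in muscle, with a median log2 difference of 8.97.

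The genes with the highest adipose level relative to muscle were *FHL1*, *TRIM55*, *PDLIM5*, *CRYAB* and *PDLIM7*, with control medians of 55.8%, 35.8%, 22.8%, 18.9% and 10.03% of the muscle RPKM. *FHL1*, a LIM protein that binds titin in muscle, was at 785, 291, 169 and 579 RPKM in control adipose tissue and 528 RPKM in rhesus_950807. Its log2 difference between muscle and adipose tissue was 2.32 (edgeR adjusted p 0.00139), and with scaling to the mapped totals it was 0.85 and did not pass the test (adjusted p 0.115). *TRIM55* was at 1.87, 0.533, 0.297 and 3.96 RPKM in control adipose tissue, from 149, 40, 28 and 381 reads, and 0.323 RPKM in the case. It was low in both tissues, and its log2 difference of 2.75 (edgeR adjusted p 0.00291) was 1.30 with scaling to the mapped totals (adjusted p 0.0803). *PDLIM5* was at 10.5, 7.40, 7.41 and 10.1 RPKM and *PDLIM7* at 17.2, 13.1, 11.5 and 11.7 RPKM in control adipose tissue, both with a small spread over the 4 animals, including those with little *ACTA1*.

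**Figure D4:**
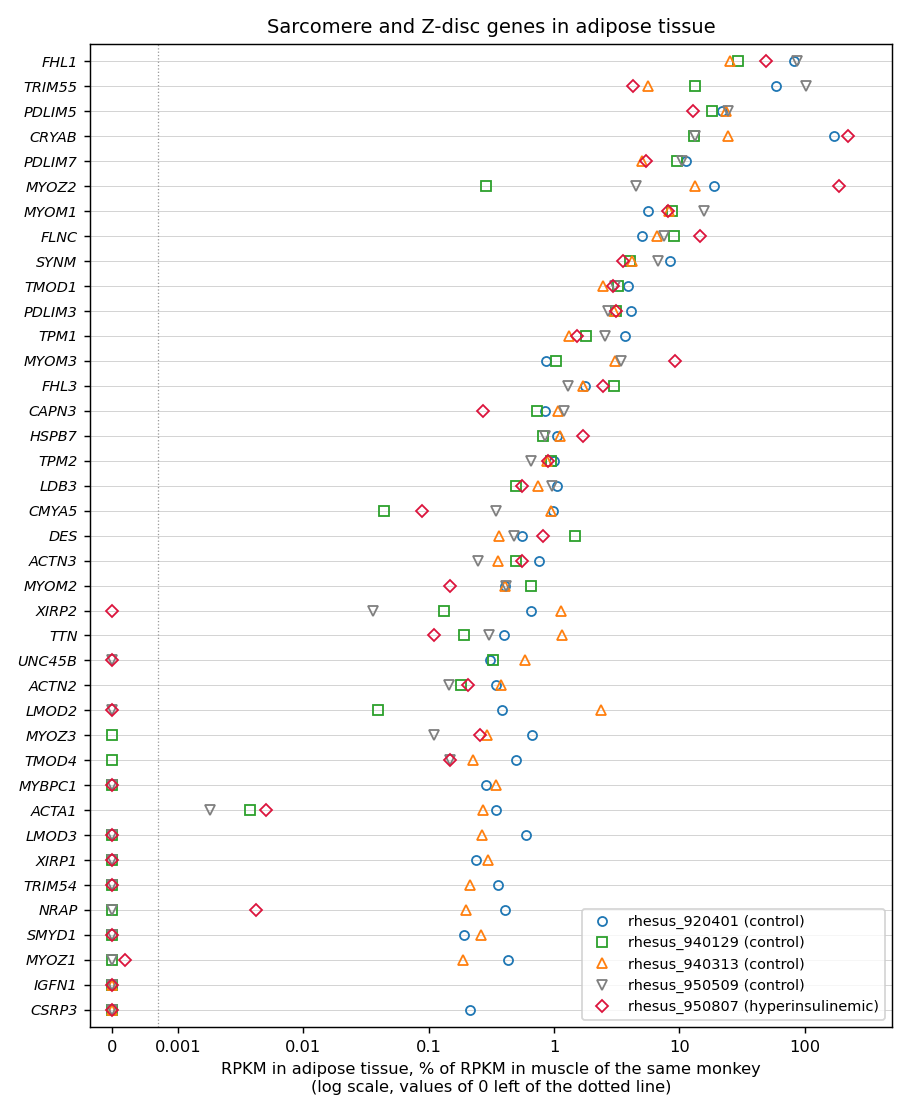
RPKM in adipose tissue as a percentage of the RPKM in muscle of the same monkey, on a log axis, for the 39 genes ordered by control median, with values of 0 drawn left of the dotted line. Symbols stand for monkeys. *FHL1* is at the top (control median 55.8%), and *ACTA1* ranges from 0.00182% to 0.343%.

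At the other end, *IGFN1* had no read in any adipose library, so that control muscle was at least 139-fold higher when 3 reads per library are taken as the floor. *CSRP3* had 6 reads in the adipose library of rhesus_920401 and 0 in the other 4, while *MYOZ1*, *SMYD1* and *NRAP* had control medians of 0.0938%, 0.0952% and 0.1001% of the muscle level. In rhesus_950807 *IGFN1*, *CSRP3* and *SMYD1* had no adipose read, and *MYOZ1* and *NRAP* had 1 and 4. Besides *CRYAB*, described next, *MYOZ2* was the only one of the 39 genes that was higher in adipose tissue of the case than in its muscle, at 0.457 RPKM (48 reads) against 0.246 RPKM (21 reads), and it was at 0.269, 0.0259, 0.103 and 0.0404 RPKM in control adipose tissue.

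The 8 most abundant of the 39 genes in control adipose tissue were *CRYAB*, *FHL1*, *ACTA1*, *TPM2*, *TPM1*, *DES*, *PDLIM3* and *PDLIM7*. *CRYAB* (ENSMMUG00000022133, chromosome 14 from 110377439 to 110380572 on the minus strand) was at 3498, 189, 218 and 153 RPKM in the controls and 2836 RPKM in rhesus_950807. Control rhesus_920401 and the case were high, at 172% and 223% of their own muscle level, and the other 3 controls were low, at 13.1% to 24.6%. *CRYAB* was the 1 gene of the 39 not called between the tissues, with a log2 difference of 1.99 (edgeR adjusted p 0.0669). With the monkey as a block it was called, at 3.31 (adjusted p 0.00152), without rhesus_920401 at 4.001 (adjusted p 3.18e-05) and without rhesus_920401 and rhesus_940313 at 4.31 (adjusted p 3.15e-05). *TPM2* was at 39.98, 29.9, 47.4 and 31.1 RPKM and 53.5 RPKM, *TPM1* at 51.3, 24.1, 31.8 and 33.6 RPKM and 36.0 RPKM, and *DES* at 24.6, 34.1, 18.5 and 11.6 RPKM and 30.5 RPKM. In these 3 genes the adipose libraries differed far less than for *ACTA1*, and those of rhesus_940129 and rhesus_950509, with little *ACTA1*, still held 29.9 and 31.1 RPKM of *TPM2*. *PDLIM3* was at 22.0, 12.8, 17.4 and 10.3 RPKM in the controls and 19.5 RPKM in the case. Smooth muscle and pericyte markers were present in adipose tissue, with sums of 599 to 1414 RPKM in the controls and 728 RPKM in rhesus_950807.

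**Figure D5:**
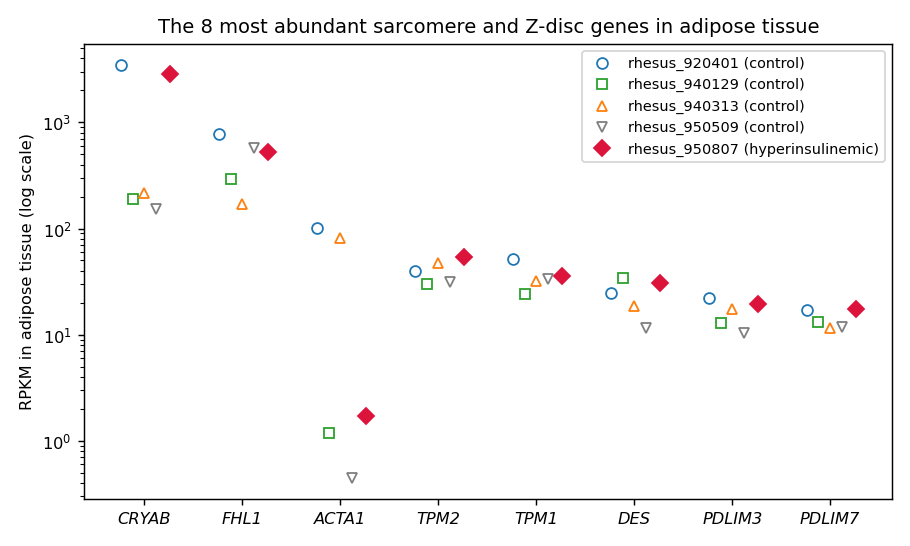
RPKM in adipose tissue of the 8 genes with the highest control mean there, on a log axis. Open symbols are the 4 control monkeys and red diamonds rhesus_950807. *CRYAB* separates rhesus_920401 (3498 RPKM) and rhesus_950807 (2836 RPKM) from the other 3 animals, and *ACTA1* separates rhesus_920401 and rhesus_940313 from the rest.

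In adipose tissue, where rhesus_950807 was compared with the controls last, 20 of the 39 genes had a mean of at least 1 RPKM. None was called (0% of 11981 genes were), and none had an unadjusted p under 0.05 in edgeR, while 286 of all genes did (1.14% higher and 1.25% lower). The log2 difference was positive for 12 of the 20 (44.2% of all genes), with a median of 0.11 against −0.06 over all genes tested. Without rhesus_920401 and rhesus_940313 it was positive for 15 of the 20 with a median of 0.34, and the median was 0.27 without rhesus_920401 alone and 0.04 without rhesus_950509. By RPKM, *TPM2*, *TMOD1*, *FLNC*, *PDLIM7*, *FHL3* and *SYNM* were above all controls, where 27.9% of all genes were, and after TMM scaling *TMOD1*, *FLNC* and *SYNM*, where 15.7% of all genes were. *CAPN3* was below all controls at 1.49, 1.18, 2.39 and 1.22 RPKM against 0.615 RPKM, where 7.8% of all genes were below by RPKM, and after TMM scaling *CAPN3* and *TRIM55* were, where 14.3% of all genes were. Both genes were under 1 RPKM in the case and passed the filter only through the controls. *SYNM*, the gene with the smallest p in muscle, was at 5.92, 3.47, 3.22 and 4.68 RPKM in control adipose tissue and 7.25 RPKM in the case, a log2 difference of 0.57 (95% interval −0.36 to 1.496). *FLNC* was at 15.7, 13.95, 8.35 and 9.92 RPKM and 23.7 RPKM, a log2 difference of 0.80 (95% interval −0.15 to 1.75).

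*CRYAB* had a log2 difference of 1.38 (95% interval −1.56 to 4.32, edgeR adjusted p 0.9999) in adipose tissue. This rested on control rhesus_920401, since without that library the difference was 3.68 and passed the test (edgeR adjusted p 0.0228), and without rhesus_920401 and rhesus_940313 it was 3.84 (adjusted p 0.000990). *ACTA1* had a log2 difference of −4.91 (95% interval −10.94 to 1.116), and without the libraries of rhesus_920401 and rhesus_940313 it was 0.86. For *FHL1*, *TPM1* and *PDLIM3* the log2 differences were 0.06, −0.15 and 0.13, and each turned its sign when 1 control was left out, *FHL1* to −0.09 without rhesus_940129 and −0.19 without rhesus_940313, *TPM1* to 0.04 without rhesus_920401 and *PDLIM3* to −0.02 without rhesus_950509. Without rhesus_920401 and rhesus_940313 they were 0.09, 0.12 and 0.54. The difference between the effects in the tissues was tested by an interaction term over 7938 genes, 20 of them in the list. None was called (0% of all genes), with 434 genes at an unadjusted p under 0.05 in edgeR. Of the 20 genes, *CAPN3* and *TRIM55* had an unadjusted p under 0.05, both lower in adipose tissue relative to muscle, by log2 differences of −1.82 and −3.23 (edgeR adjusted p 0.902), where 1.37% of all genes were lower and 4.09% higher. In adipose tissue of the case they were at 0.615 and 0.323 RPKM, so both passed the filter of 1 RPKM there only through the controls, which favours this direction. *SYNM* differed by −0.64 (95% interval −1.81 to 0.52), so its effect was not shown to differ between the tissues. Without rhesus_920401 and rhesus_940313, in a fit added after the data were seen, no gene was called, with 416 genes at an unadjusted p under 0.05 in edgeR, and the 3 differences were −1.72, −3.74 and −0.52.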

How the data were processed

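Strand-specific dUTP libraries of poly(A) RNA were sequenced from 2 tissues, skeletal muscle and fat, of 5 monkeys. Per the submitters' processing notes reads were mapped with TopHat 1.2.0, while the paper names another release. No source used here names the counting tool, the genome build or the annotation. The deposited tables hold whole-number read counts per gene and RPKM values, which the authors made, per the file headers, from the counts, the transcript length and the mapped total of each library. RPKM values recomputed in this way differed by at most 5.00e-14 (relative). Reads in genes were 48.2% to 64.6% of the mapped totals, and 1 library per animal limits the precision to the spread between animals.

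The 44 genes, their roles and the other gene lists were chosen with earlier results of these data known. Symbols came from an Ensembl name table. Counts were scaled by TMM and tested with edgeR 4.0.16 (R 4.3.3) where the mean reached 1 RPKM, in 8306 genes in muscle, 11981 in adipose tissue, 12253 between the tissues of the controls and 7938 for the interaction. Between the tissues that mean was needed in either tissue, and for the interaction in both. Calls needed an adjusted p under 0.05 and, between tissues, a log2 difference of 1 or more in size. Genes were described by role, with values in full for titin and the main filament, Z-disc, LIM and chaperone genes, the 10 with the smallest p in muscle, the 8 most abundant in adipose tissue, the 5 with the highest and the 5 with the lowest adipose level relative to muscle, and up to 4 of each further list. The other genes were named from their values.

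Both tissues came from the same monkeys, per the labels. The deviations of an animal's 2 libraries from the control means correlated across genes by −0.215 to 0.151, and between different animals by −0.284 to 0.248. The fit with the monkey as a block is given where it changes a call. Alternatives were DESeq2 1.42.0, limma 3.58.1 on log2(RPKM + 1) or log2(RPKM + 0.1), median-of-ratios scaling, scaling to mapped totals, no filter, a filter at 5 RPKM, a fit of all 10 libraries, leaving out each control, and leaving out rhesus_920401 and rhesus_940313. TMM-scaled CPM values, in place of RPKM, for the genes outside the control range, and the interaction without these 2 animals, were added after the data were seen. The scripts were tested on simulated data. Intervals of read counts and the floor of 3 reads cover counting error only.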

Additional observations from a re-analysis of the deposited data

Results flagged for a closer look

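In 59 groups of 4 control values (each gene in each tissue where it was tested), 5 had 1 animal far from the other 3 by Dixon's test at the 95% level, where chance gives about 1 in 20. In muscle these were *TPM1* in rhesus_940313 at 2438 RPKM, *MYBPC1* in rhesus_920401 at 608 RPKM, *MYOZ2* in rhesus_940129 at 9.07 RPKM and *FLNC* in rhesus_920401 at 314 RPKM. In adipose tissue it was *CRYAB* in rhesus_920401 at 3498 RPKM, with a gap to the next control of 0.981 of the whole range. For *TPM1* and *MYBPC1* the outlying control was close to rhesus_950807 (2354 and 709 RPKM), and for *MYOZ2* and *FLNC* it was far above it (0.246 and 162 RPKM). No cause was tested.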

How the results depend on the processing

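In muscle, 0 genes were called in the fit described, 88 with DESeq2, 10 with no filter, 3 with scaling to the mapped totals, 1 with median-of-ratios scaling, 1 with limma at either pseudocount, and 0 to 14 when 1 control was left out. Of the 39 genes, 2 were called with DESeq2 and 0 to 1 when 1 control was left out. Their median log2 difference was 0.489 and 0.488 with limma (pseudocounts 0.1 and 1) and 0.462 with the mapped totals. With limma (0.1), limma (1) and the mapped totals the sign turned for *MYOM2* (0.121, 0.121 and 0.0681), *ACTN3* (0.0481, 0.0480 and 0.0147), *DES* (0.165, 0.165 and 0.0789), *FHL3* (0.0409, 0.0408 and 0.0155) and *NRAP* (0.0382, 0.0381 and 0.0268). Leaving out 1 control gave −0.26 to 0.018 for *MYOM2*, −0.24 to 0.0855 for *DES* and −0.508 to 0.0528 for *FLNC*, and all 10 libraries gave −0.00768 for *ACTA1*.

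In adipose tissue, 0 genes were called, 11 with DESeq2, 32 without rhesus_920401 and rhesus_940313, and 0 to 7 when 1 control was left out, with 1 of the list without both libraries and 0 to 1 in the last. The list's median was 0.411 with limma (0.1) and −0.264 with no filter, where 38 of its genes entered. The sign turned for *TPM1* (0.0846 and 0.0812 with limma, 0.0311 with the mapped totals, 0.118 without both libraries, −0.28 to 0.0351 without 1 control), *ACTA1* (0.858 without both), *FHL1* (−0.19 to 0.40) and *PDLIM3* (−0.0212 to 0.28 without 1 control). After TMM scaling, 3 genes lay above and 2 below all controls.

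Between the tissues 6237 genes were called, 4151 with the filter at 5 RPKM, which tests fewer genes, and 3609 without rhesus_920401 and rhesus_940313, which leaves fewer samples. The interaction had 0 calls, 16 with DESeq2 and 0 without both animals. The monkey as a block (6148 genes and 39 of the list between the tissues, 0 for the interaction) changed no call in the list but that of *CRYAB*. Where not given by construction, the cause was not tested. Over 68 results for single genes, direction and side of the threshold were kept in 786 cases, a call was gained in 15 and lost in 2, and the sign turned in 29, all of them in the genes named above. With 1 animal against 4, differences under about the width of the intervals given could not be shown at this depth.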

Other observations

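Genes of chaperone-assisted turnover were looked at after the values of *CRYAB* in adipose tissue had been seen, and were not tested as a group. *HSPB8*, a small heat shock protein, was at 106, 40.2, 32.4 and 29.8 RPKM in control adipose tissue and 104 RPKM in rhesus_950807, so that rhesus_920401 and the case were the highest pair, as for *CRYAB*. Its co-chaperone *BAG3*, which acts on filamin in muscle, was at 13.6, 9.93, 6.32 and 7.94 RPKM in the controls and 14.5 RPKM in the case, with the same pair highest. *HSPB6* was not, at 752, 873, 495 and 609 RPKM in the controls and 526 RPKM in the case. None of the 3 was called in adipose tissue (edgeR, log2 differences 0.83, 0.44 and −0.57). Without rhesus_920401 that of *HSPB8* was 1.36, and without rhesus_920401 and rhesus_940313 it was 1.35.

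Of 3 further sarcomere genes with an unadjusted p under 0.05 in adipose tissue in edgeR, all lower in the case and none called, *ANKRD23* was at 4.02, 1.51, 2.53 and 0.77 RPKM in the controls and 0.153 RPKM in the case, and *TNNT1* at 1.68, 7.56, 9.92 and 3.71 RPKM and 0.643 RPKM. *MYBPC2* had 6.25 and 5.49 RPKM in rhesus_920401 and rhesus_940313, 0.0530 and 0 RPKM in the other controls and 0 in the case. Without these 2 libraries it was at or under the floor of 3 reads in every library, and no fold is given. All 3 genes were under 1 RPKM in the case and passed the filter of 1 RPKM only through the controls.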
